A study of Macaca fascicularis with 56 samples.

Results

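The change in blood gene expression between 0 and 4 h was compared between macaques given LR12 and macaques given a control peptide. The members were every array of those arms at 0 and 4 h, which made 20 of the 56 arrays of the series and 10 of its 14 animals. The LR12 arm held 6 animals (Y31309 to Y31314) and the peptide control arm held 4 (Y31305 to Y31308). For each animal and gene, the log2 intensity at 0 h was subtracted from that at 4 h, and these changes were set against each other between the arms over 16020 genes.

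All animals were cynomolgus macaques (Macaca fascicularis), and the tissue was blood collected in PAXgene tubes. Per the series title, the animals were challenged with endotoxin and then received LR12 or its scrambled form, and the sample labels call the arm of the scrambled form peptide control. A vehicle arm of 4 animals (Y31301 to Y31304) is shown beside the main comparison but entered no test of it. The labels give no ages, sexes, strains or doses, and they do not say whether vehicle animals received endotoxin or where in the protocol hour 0 lay.

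LR12 is a short peptide derived from TREM-like transcript 1 (TREML1), a protein of activated platelets. It binds the ligands of TREM-1 in place of the receptor. TREM-1 sits on neutrophils and monocytes and pairs with the adaptor TYROBP (DAP12). The receptor amplifies the signal that endotoxin sends through TLR4, CD14 and MD-2 (LY96) towards NF-kB, cytokines and chemokines. Endotoxin itself also shifts the makeup of blood, since neutrophils are released from the marrow while lymphocytes and monocytes leave the circulation. In whole blood, fewer cells of a type and less RNA per cell cannot be told apart. The comparison addresses which part of the change after endotoxin differs when the decoy peptide keeps its sequence order.

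The arrays carry probes designed on human sequence, so values were compared between arms for one gene and not between genes. Blood markers were high at 0 h in both arms. The neutrophil gene S100A8 averaged 13.2 log2 intensity in LR12 animals and 13.7 in peptide control animals, and the platelet gene PF4 averaged 11.9 in each. The median over all probe sets of an array ran from 16.1 to 23.5 at 0 h and from 12.9 to 20.2 at 4 h on the linear scale in LR12 animals, and from 16.6 to 20.3 and from 13.9 to 19.4 in peptide control animals. With it, the median change over all genes was -0.29 in LR12, -0.26 in the peptide control and -0.15 in vehicle, and the median of the per-gene differences between LR12 and peptide control was -0.05. The arrays also fell into a set with high and a set with low signal of 12 spiked poly-A control probe sets. Of the LR12 animals, 4 moved from low to low, 1 (Y31311) from low to high and 1 (Y31310) from high to high. Of the peptide control animals, 3 moved from high to high and 1 (Y31307) from low to high. The arms therefore differ in control set as well. One peptide control animal stood apart. Over all genes, the changes of Y31305 correlated with the mean LR12 change at only 0.135, against 0.475 to 0.590 in the other peptide control animals. Vehicle animals gave 0.026 to 0.489. With the mean of the other animals of its own arm, Y31305 correlated at 0.0995, against 0.418 to 0.452 in the rest of the peptide control. The LR12 animals, each set against the mean of the other LR12 animals, gave 0.553 to 0.674. Without Y31305, the median of the per-gene differences between the arms was 0.01. Further values without Y31305 or within control sets are given below for part of the results. The labels do not describe separate experiments, and p values measure the spread between these animals.

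Genes called in both arms moved the same way, and none moved in opposite directions. In the LR12 arm, 2018 genes (12.6%) rose and 4631 (28.9%) fell at an adjusted p below 0.05, 6649 (41.5%) in all. In the peptide control arm, 814 (5.08%) rose and 1569 (9.79%) fell, 2383 (14.9%) in all. With each array centred on its median, the counts were 2769 up and 3247 down in LR12, against 1156 up and 523 down in the peptide control. Of the genes called within an arm, 2160 were called in both arms and all had one direction, which was 32.5% of the LR12 calls and 90.6% of the peptide control calls. LR12 had 6 animals and the peptide control 4, so the numbers of calls cannot be compared as sizes of response.

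**Figure D1:**
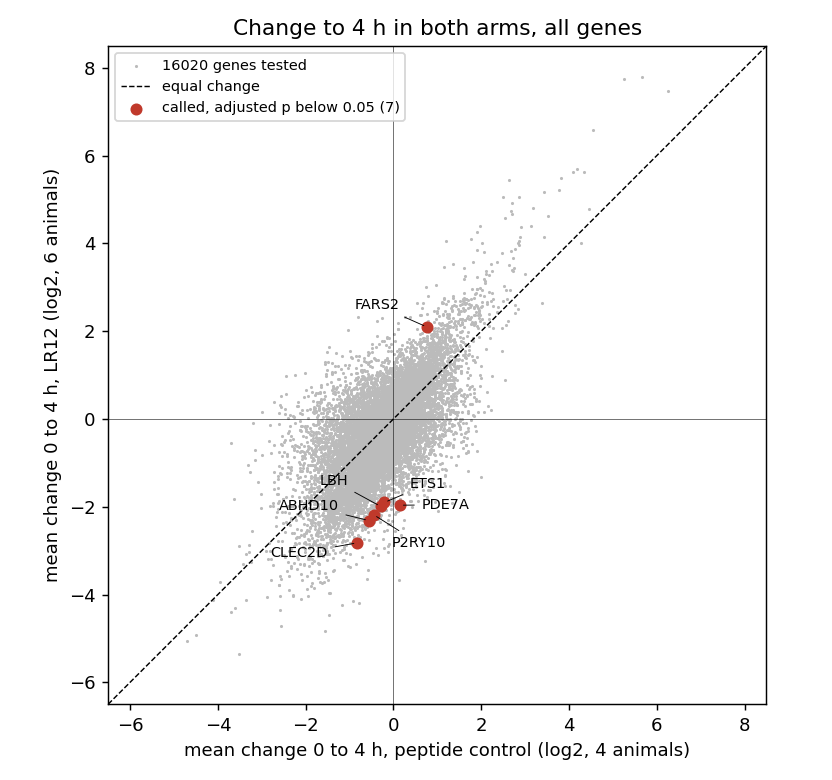
Mean log2 change from 0 to 4 h of 16020 genes in the LR12 arm (vertical axis, 6 animals) against the peptide control arm (horizontal axis, 4 animals), with the dashed line marking equal change. The cloud runs along the line (r = 0.693 over genes), and of the 7 genes called different 6 lie below the line and FARS2 above it. Differences over all genes ran from -3.95 to 3.42, so genes that were not called lie farther from the line than these.

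Over all genes, the mean changes of both arms correlated at 0.693, as a description across genes that share the same 20 arrays, and the slope of LR12 on peptide control was 0.903. Among the genes called in the peptide control, 73.3% had a larger change in the same direction in LR12. Without Y31305 in the peptide control mean, that share was 58.6%, the correlation 0.708 and the slope 0.750. The 2160 shared calls include strongly induced genes of phagocytes. PI3, the protease inhibitor elafin, changed by 5.43, 7.45 and 9.02 (lowest, median and highest) in LR12 animals, against 1.2, 7.10, 8.72 and 7.99 in peptide control animals. FCGR1A, the high-affinity IgG receptor CD64, changed by 5.30, 5.64 and 6.12 in LR12 animals and by -0.85, 7.33, 6.71 and 3.56 in peptide control animals. In both genes Y31305 was the lowest of all 10 animals. MARCO, a scavenger receptor of phagocytes, changed by 7.76 ± 0.80 (SD, n = 6) in LR12 and 5.24 ± 4.14 (SD, n = 4) in the peptide control, starting from a 0 h level below the 20th percentile of all probe sets, where the size of a change is not defined.

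The difference between the arms in the change to 4 h was called for 7 genes at a limma adjusted p below 0.05, which is 0.0437% of the genes tested. Of these, 6 (0.0375%) were lower in LR12 and 1 (0.00624%) was higher. At an unadjusted p below 0.05 there were 2110 genes (13.2%), 1362 lower and 748 higher in LR12. The per-animal changes of the arms did not overlap for 478 genes (2.98%), 316 lower (1.97%) and 162 higher (1.01%) in LR12. With arrays centred on their median, 6 genes were called lower and 0 higher, and after quantile normalization 3 lower and 0 higher. Leaving out Y31305, Y31308 or Y31313 ended every call, whereas 85 genes were called without Y31307. For all 7 genes, the changes of the 6 LR12 animals lay entirely outside those of the 4 peptide control animals.

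PDE7A encodes a phosphodiesterase that breaks down cyclic AMP and is known from T cells. It changed by -2.96, -1.92 and -1.30 (lowest, median and highest) in the 6 LR12 animals, against 0.19, -0.10, 0.23 and 0.26 in the 4 peptide control animals. The gene fell in every LR12 animal and stayed within 0.26 of its starting level in every peptide control animal. Its level at 0 h was 10.28 ± 0.44 log2 intensity in LR12 (SD, n = 6) and 10.44 ± 0.29 in the peptide control (SD, n = 4), and at 4 h it was 8.31 ± 0.76 in LR12 and 10.59 ± 0.21 in the peptide control. The levels overlapped at 0 h and no longer did at 4 h. The difference in change was -2.11 ± 0.29 (SE, adjusted p = 0.0139, 95% interval -2.72 to -1.5), a 4.32-fold lower ratio of 4 h to 0 h in LR12. All 6 kept probe sets of PDE7A gave a negative difference, from -2.11 in the brightest to -0.38 in another.

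CLEC2D encodes the ligand LLT1 of the natural killer and T cell receptor CD161. Its changes were -3.70, -2.68 and -2.46 (lowest, median and highest) in LR12 animals and -0.68, -0.95, -0.77 and -0.88 in peptide control animals. It fell in both arms, by 2.82 on the log2 scale in LR12 and by 0.82 in the peptide control (adjusted p within the arms 8.3e-08 and 0.019). The difference was -2.0 ± 0.28 (SE, adjusted p = 0.0139). This call rests on 1 probe set: the dimmer kept probe sets of CLEC2D gave -0.25 and 0.34, and the median over its probe sets turned the difference to 0.08 (adjusted p = 0.97).

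ETS1 encodes a transcription factor of lymphocytes that T and natural killer cells need for their development. It changed by -2.35, -1.93 and -1.10 in LR12 animals (lowest, median and highest), against -0.14, -0.51, -0.18 and 0.01 in peptide control animals. Levels at 0 h were close, at 11.22 ± 0.27 log2 intensity in LR12 and 11.23 ± 0.34 in the peptide control. At 4 h they were 9.32 ± 0.69 in LR12 and 11.02 ± 0.24 in the peptide control, so that the LR12 animals lay between 8.49 and 10.37 and every peptide control animal at or above 10.77. The difference in change was -1.70 ± 0.24 (SE, adjusted p = 0.0152), and the other kept probe sets of ETS1 gave -1.77 and -1.63.

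P2RY10, a receptor for lysophosphatidylserine on lymphocytes, changed by -2.65, -2.20 and -1.61 in LR12 animals and by -0.18, -0.97, -0.14 and -0.52 in peptide control animals. The difference was -1.73 ± 0.29 (SE, adjusted p = 0.0489). A second, dim probe set of P2RY10 gave 0.82, so its probe sets did not move alike. LBH, a transcriptional cofactor linked to Wnt signalling, changed by -2.58, -2.09 and -1.07 in LR12 animals, against -0.25, -0.76, -0.04 and -0.11 in peptide control animals. Its difference was -1.70 ± 0.29 (SE, adjusted p = 0.0489), with the Y31311 value of -1.07 nearest to the peptide control animals. ABHD10, a mitochondrial enzyme that removes fatty acids from proteins, changed by -2.66, -2.29 and -2.02 in LR12 animals and by 0.30, -0.85, -1.18 and -0.50 in peptide control animals. The LR12 animals lay close together at 4 h (6.85 ± 0.20 log2 intensity), the peptide control animals wider (8.31 ± 0.52). The ABHD10 difference was -1.76 ± 0.30 (SE, adjusted p = 0.0489). A dimmer kept probe set of ABHD10 gave -0.72.

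FARS2, which encodes the mitochondrial phenylalanyl-tRNA synthetase, was the single gene called higher in LR12. Its changes were 1.75, 2.09 and 2.44 (lowest, median and highest) in LR12 animals and 0.45, 0.79, 0.78 and 1.05 in peptide control animals. FARS2 rose in both arms, by 2.09 in LR12 and 0.77 in the peptide control (adjusted p within the arms 8.3e-08 and 0.0073), and the difference was 1.32 ± 0.21 (SE, adjusted p = 0.0359). All 3 of its kept probe sets gave a positive difference, from 1.17 to 1.74. Vehicle animals changed by 1.21, 2.07, 0.99 and -0.49 in FARS2, which runs from below every peptide control animal into the LR12 range.

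**Figure D2:**
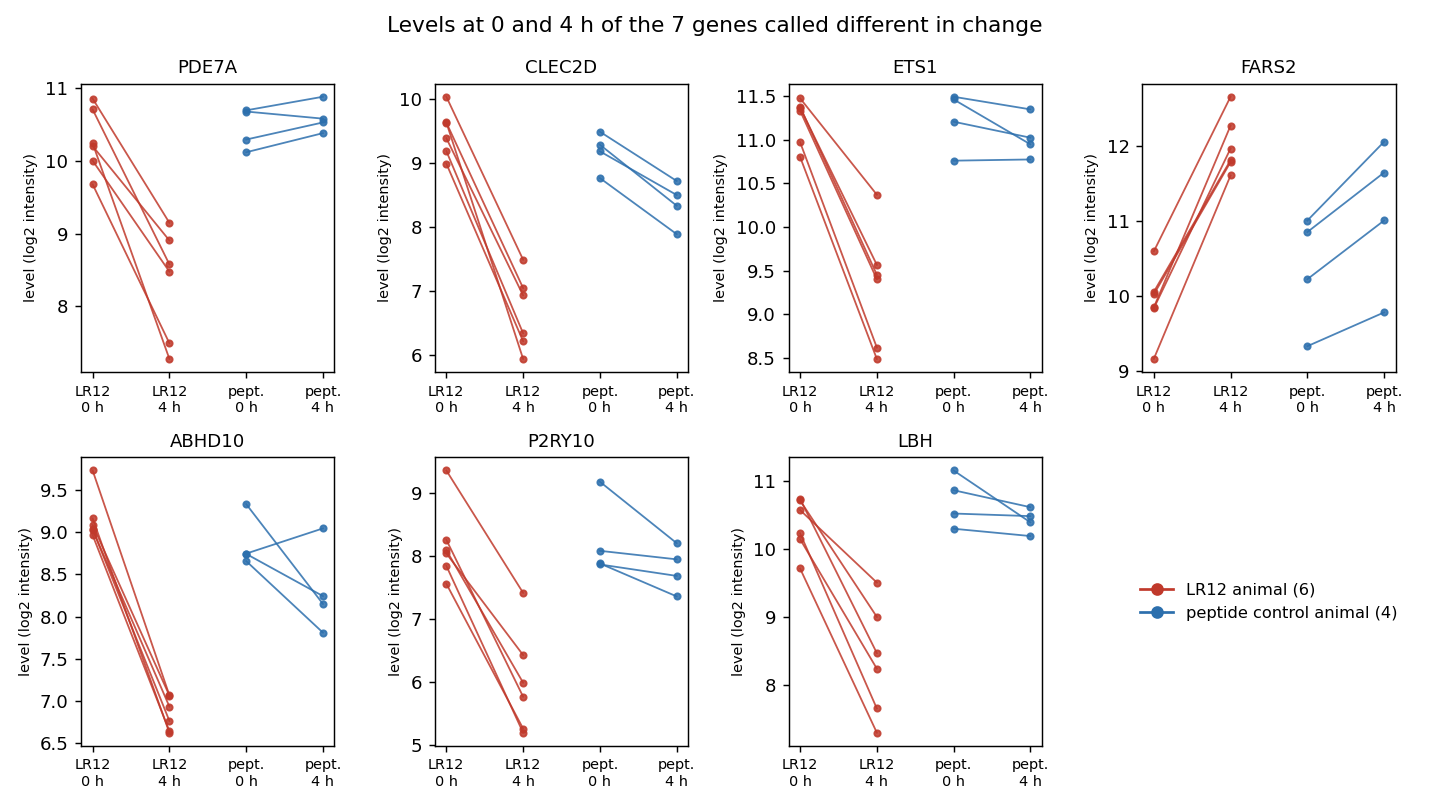
Log2 intensity at 0 and 4 h of the 7 genes called different in change, with 1 line per animal (LR12 left in each panel, 6 animals; peptide control right, 4 animals; vertical axes do not start at 0). The LR12 lines of PDE7A, ETS1 and LBH drop from levels shared with the peptide control animals, and those of FARS2 rise more steeply.

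The vehicle animals were spread wide in some of the genes called lower. In ABHD10 they ran only from -1.30 to -0.28, above the highest LR12 animal at -2.02. In PDE7A they changed by -0.35, -1.36, -0.20 and 0.09, and in CLEC2D by -1.39, -2.55, -1.0 and -0.05. In both, Y31302 reached the range of the LR12 animals and Y31304 lay within or above the range of the peptide control animals. Mean changes to 2 h, which share the 0 h arrays with the changes to 4 h, were -1.87 in LR12 and -0.86 in the peptide control for PDE7A, and -1.90 and -0.56 for CLEC2D. Mean changes to 8 h were -2.03 in LR12 and -0.92 in the peptide control for PDE7A, and -2.53 and -0.87 for CLEC2D. FARS2, by contrast, was below its 0 h level at 8 h in both arms (-0.28 in LR12 and -0.50 in the peptide control). These differences at 2 and 8 h were not tested.

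Since the per-animal changes of the 7 called genes do not overlap between the arms, any subset of animals gives the same direction, and values within one control set describe only its size. Among animals with high-set arrays at both hours (1 LR12 animal, 3 peptide control animals), the differences were -1.41 for PDE7A, -1.75 for CLEC2D, -1.58 for ETS1 and 1.0 for FARS2. Between the single animals of each arm that moved from low to high (Y31311 and Y31307), they were -1.94, -1.69, -0.92 and 0.97 for the same genes. The 4 LR12 animals with low-set arrays at both hours have no counterpart in the peptide control, and their part in the differences was not tested.

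Genes with no overlap between the arms and a level above the array median in at least 1 group were eligible to be named. Where fewer than 10 genes were called in a direction, the eligible genes of smallest p were added up to 10. None of these 13 was called, and their adjusted p ran from 0.0540 to 0.0936. On the side higher in LR12, HAMP, the iron hormone hepcidin, changed by 0.63, 1.32 and 1.90 in LR12 animals and by -0.70, -0.73, -0.33 and -0.52 in peptide control animals. It had opposite signs in every animal of the arms (difference 1.88 ± 0.35, SE, adjusted p = 0.0540), at 0 h levels of only 5.44 ± 0.37 in LR12 and 5.82 ± 0.35 in the peptide control. ANXA1, the glucocorticoid-induced protein annexin A1, had a difference of 1.08 ± 0.20 (SE, adjusted p = 0.0540). At 0 h it was 10.82 ± 0.24 in LR12 and 11.74 ± 0.37 in the peptide control, and at 4 h 12.04 ± 0.20 and 11.89 ± 0.21, so LR12 animals began 0.92 lower and ended 0.15 higher.

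The other genes on that side were CAPN3, a calcium-dependent protease (1.28), CARD16, a decoy of caspase 1 (0.94), CLEC7A, the beta-glucan receptor dectin-1 (1.31), EIF4E3, a cap-binding protein (1.15), RCVRN, a calcium sensor of the retina (1.60), CDKN2B, an inhibitor of cyclin-dependent kinases (1.84), and TFEC, a transcription factor of myeloid cells (1.95). Their per-animal changes did not overlap between the arms, which was a condition for naming them. Another kept probe set, dimmer than the one used, read the opposite direction for CDKN2B (-1.36), TFEC (-0.66) and CLEC7A (-0.29). On the side lower in LR12 were AFAP1L2, an adaptor of phosphoinositide 3-kinase signalling (-3.0), RBM4B, an RNA-binding protein (-1.69), TRIB2, a pseudokinase (-1.46), and an orphan immunoglobulin kappa variable segment (-1.38). AFAP1L2 was 1.78 higher in LR12 at 0 h and 1.22 lower at 4 h, so its difference in change includes a gap at the start.

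**Figure D3:**
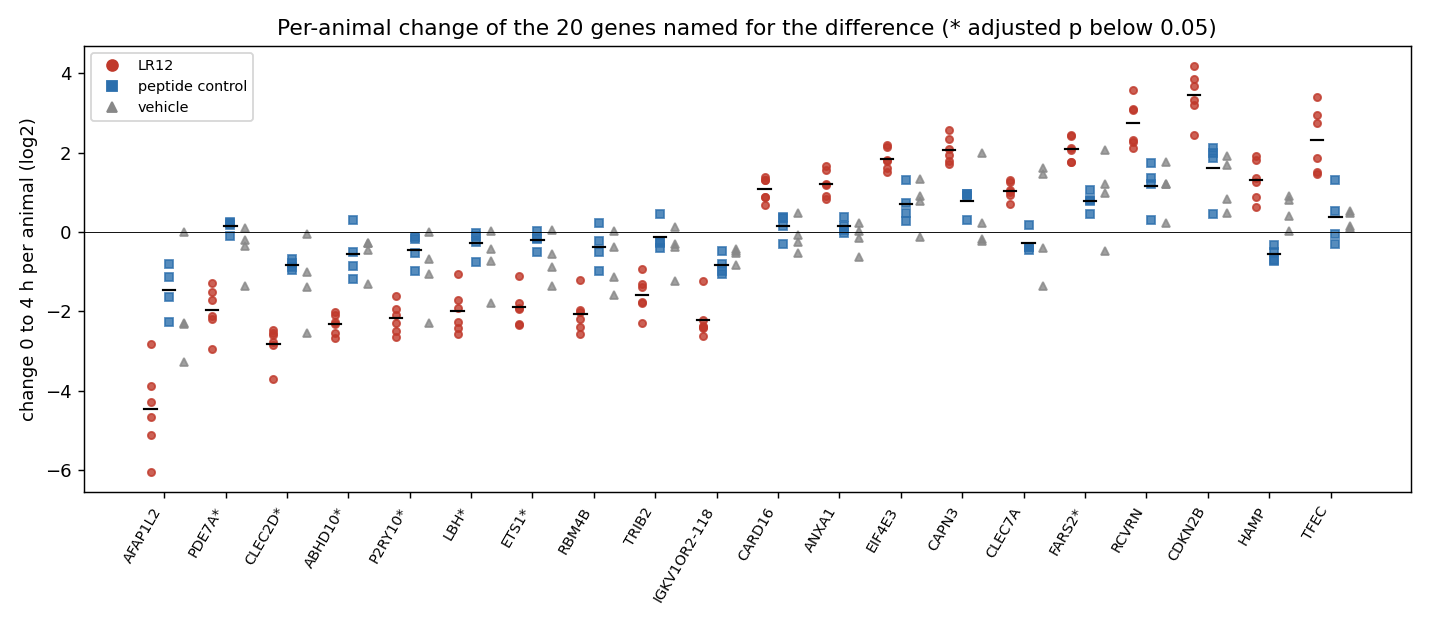
Log2 change from 0 to 4 h in each animal for the 20 genes named for the difference, ordered by its size (circles LR12, 6 animals; squares peptide control, 4 animals; triangles vehicle, 4 animals; bars are arm means; asterisks mark adjusted p below 0.05). LR12 and peptide control symbols do not overlap for any of the 20 genes, which was a condition for naming them, and vehicle symbols often span both.

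At an adjusted p below 0.1, a threshold added after the data were seen, 117 genes (0.73%) differed, 92 lower and 25 higher in LR12. All 92 lower genes also fell within LR12 at an adjusted p below 0.05, where 28.9% of all genes fell. Of the 25 higher ones, 24 also rose there, where 12.6% of all genes rose. The test within LR12 and the difference share the LR12 arrays. Within the peptide control, 39 of the 117 also changed in the same direction, where 14.9% of all genes were called in either direction. The vehicle mean lay between the means of the other arms for 59 of the 117, a count for which no share over all genes was taken.

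Of TREM-1 and its signalling partners, 18 of 19 listed genes were measured and none was called different. TREM1 itself changed by -1.14, 0.02 and 1.75 in LR12 animals (lowest, median and highest) and by -0.44, -0.32, -0.34 and -1.82 in peptide control animals. LR12 animals went either way, and Y31308 was the lowest of all. The difference was 0.82 ± 0.43 (SE, adjusted p = 0.432), with an interval from -0.08 to 1.72. The adaptor TYROBP differed by -0.08 ± 0.18 (adjusted p = 0.898, interval -0.47 to 0.30). TREML1, the source of the peptide sequence, fell within LR12 (-0.60, adjusted p = 0.0044) and was at -0.10 in the peptide control, with a difference of -0.50 ± 0.24 (adjusted p = 0.393). Downstream, the guanine exchange factor VAV1 rose in both arms, by 1.63 in LR12 and 0.97 in the peptide control, and TREML2 by 1.80 and 1.27. Over the list, 7 genes rose and 4 fell in LR12, 3 rose and 2 fell in the peptide control, against 12.6%, 28.9%, 5.08% and 9.79% of all genes, and the median difference was 0.16 beside -0.05 over all genes. It was 0.10 without Y31308 or without Y31309.

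Receptors and adaptors of endotoxin recognition had a median difference of 0.33 over 18 genes, with 14 differences above 0 and none called, and 0.19 without Y31309. CD14, the endotoxin co-receptor, rose within LR12 by 1.0 ± 0.59 (SD, n = 6, adjusted p = 0.00053) and was at 0.17 ± 0.64 (SD, n = 4) in the peptide control. The difference of 0.83 ± 0.31 was not called (adjusted p = 0.267). LY96, which holds endotoxin for TLR4, rose by 2.64 in LR12 and 1.12 in the peptide control (difference 1.52 ± 0.43, adjusted p = 0.150). TLR4 rose by 0.91 in LR12 and 0.68 in the peptide control (difference 0.23 ± 0.27, adjusted p = 0.778).

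Genes of NF-kB and its feedback had a median difference of 0.38 over 17 genes, 14 of them above 0, and 3 passed an unadjusted p below 0.05 in that direction, as did 4.67% of all genes. The median was 0.26 without Y31305. Of the list, 11 genes rose in LR12 and 5 in the peptide control, against 12.6% and 5.08% of all genes, and none fell. ICAM1, an NF-kB target that lets leukocytes adhere, changed by 3.41, 3.81 and 4.33 in LR12 animals and by 0.19, 3.15, 2.87 and 1.40 in peptide control animals. The arms did not overlap in ICAM1, and Y31306 lay just below the lowest LR12 animal. Its difference of 1.94 ± 0.47 had an adjusted p of 0.0989. NFKB2, the p100 subunit, also had no overlap (1.64 ± 0.35 in LR12 and 0.32 ± 0.50 in the peptide control, SD, adjusted p of the difference 0.0941). The inhibitors TNFAIP3 and NFKBIA rose within LR12 by 2.04 and 0.68, and their changes in the peptide control, 0.76 and 0.36, were not called there. Their differences of 1.28 ± 0.53 and 0.32 ± 0.23 were not called (adjusted p 0.319 and 0.604).

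Cytokines and chemokines showed no common direction. The median difference was -0.12 over 18 cytokines and -0.09 over 18 chemokines, and both medians changed sign with single animals left out and with either other filter on low values. The cytokine median was 0.15 without Y31306 and 0.08 without Y31314, and the chemokine median was 0.11 without Y31307, 0.05 without Y31311 and 0.07 without Y31314. IL1B, the gene of interleukin 1 beta, rose by 2.28 ± 0.61 in LR12 (SD, n = 6) and 1.56 ± 1.21 in the peptide control (SD, n = 4), where the changes were -0.23 in Y31305 and 1.84 to 2.36 in the other 3 animals. The difference was 0.72 ± 0.44 (adjusted p = 0.528, interval -0.22 to 1.66). TNF changed by 0.10 ± 0.83 in LR12 and -0.42 ± 1.5 in the peptide control, a difference of 0.52 ± 0.62 (adjusted p = 0.786). IL6 changed by -3.51, -1.32 and 1.57 in LR12 animals and by -0.42, 0.75, 1.91 and 2.56 in peptide control animals. The groups overlapped, at levels between 0.28 and 4.95 log2 intensity, and the difference of -2.37 ± 0.98 was not called (adjusted p = 0.320).

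Among chemokines, CXCL10, an interferon-induced attractant of T cells, rose by 4.10 ± 1.38 in LR12 and 1.77 ± 1.52 in the peptide control, a difference of 2.32 ± 0.69 (adjusted p = 0.166). Its peptide control changes were -0.18, 3.40, 2.40 and 1.48, of which 2 lay above the lowest LR12 value of 1.97. CCL2, an attractant of monocytes, rose by 2.29 in LR12 and 1.94 in the peptide control (difference 0.35 ± 0.51, adjusted p = 0.836). CCL5, made by T and natural killer cells and held in platelets, fell by 3.06 on the log2 scale in LR12 and by 1.52 in the peptide control, without overlap (difference -1.54 ± 0.32, adjusted p = 0.0648). Its level was 1.23 higher in LR12 at 0 h, and LR12 minus peptide control was -0.31 at 4 h. CXCL8 differed by -0.22 ± 0.47 (adjusted p = 0.896). The interferon response had a median difference of -0.04 over 23 genes, with 12 genes up in LR12 and 7 in the peptide control (against 12.6% and 5.08% of all genes), and the median turned sign without Y31306, Y31308 or any LR12 animal but Y31309.

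Inflammasome genes had a median difference of 0.47 over 17 genes (0.29 without Y31309). Of these, 7 were higher in LR12 and 1 lower at an unadjusted p below 0.05, against 4.67% and 8.5% of all genes. IL18RAP, a chain of the interleukin 18 receptor, rose by 4.02 ± 0.83 in LR12 and 2.02 ± 1.10 in the peptide control (difference 2.0 ± 0.48, adjusted p = 0.0973). NLRC4, a sensor that builds an inflammasome, rose by 2.46 in LR12 and 1.0 in the peptide control without overlap (adjusted p of the difference 0.112), and CASP1 differed by 0.72 ± 0.25 (adjusted p = 0.246). Anti-inflammatory mediators had a median difference of 0.38 (0.25 without Y31305), with 14 of 17 above 0. IRAK3, a brake on Toll-like receptor signalling, rose by 2.40 in LR12 and 1.28 in the peptide control (difference 1.13 ± 0.30, adjusted p = 0.129). IL1R2, the decoy receptor of interleukin 1, rose by 2.17 and 1.23 (adjusted p of the difference 0.167), and IL1RN, the receptor antagonist, by 2.90 and 2.19 (adjusted p of the difference 0.452).

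**Figure D4:**
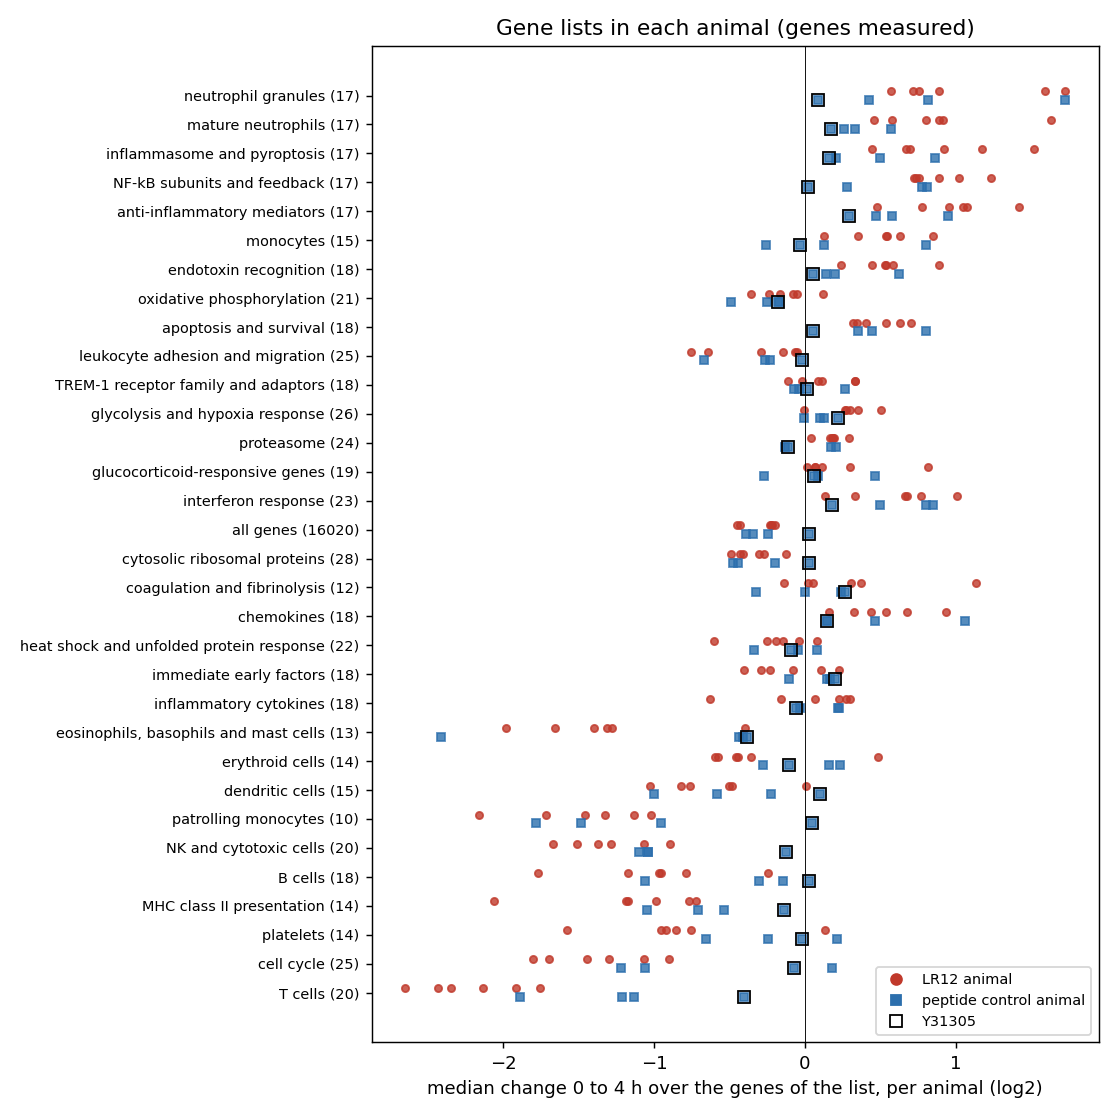
Median log2 change from 0 to 4 h over the genes of each list in each animal (circles LR12, 6 animals; squares peptide control, 4 animals; the black frame marks Y31305; the number of genes measured stands in brackets), ordered by the difference between the arms. T cell medians lie between -2.65 and -1.76 in LR12 animals and between -1.89 and -0.40 in peptide control animals, and Y31305 is often the square nearest to 0.

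T cell genes were the list with the largest median difference. All 20 measured genes fell within LR12, where 28.9% of all genes fell, and 18 within the peptide control, where 9.79% did. The median change over the list was -2.24 in LR12, -1.19 in the peptide control and -0.70 in vehicle. All 20 differences were below 0, against 53.8% of all genes, with a median of -1.06. At an unadjusted p below 0.05, 12 of the 20 were lower in LR12, against 8.5% of all genes, and 3 had no overlap (1.97%). None was called. The animal medians of the list were -2.65, -2.24 and -1.76 in LR12 (lowest, median and highest) and -0.40, -1.21, -1.89 and -1.13 in the peptide control, so Y31307 lay within the LR12 range.

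LEF1, a transcription factor of naive T cells, changed by -2.93, -2.47 and -1.63 in LR12 animals and by -0.13, -1.17, -1.24 and -0.82 in peptide control animals (difference -1.52 ± 0.29, adjusted p = 0.0540). BCL11B, which keeps T cell identity, differed by -1.47 ± 0.33 (adjusted p = 0.0923), and CD3G, a chain of the T cell receptor complex, by -1.36 ± 0.34 (adjusted p = 0.113). LCK, the kinase that starts T cell receptor signalling, fell by 3.48 in LR12 and by 1.88 in the peptide control, with overlap (difference -1.60 ± 0.44, adjusted p = 0.147). IL7R differed least, by -0.17 ± 0.37. Part of the list's difference lay at the start: LR12 animals were higher than peptide control animals at 0 h in 15 of the 20 genes (median 0.33) and lower at 4 h in 19 (median -0.52).

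Without Y31305, the median difference of the T cell list was -0.80. With the control set as a covariate it was -1.14, and among animals that kept one control set -1.30. Across the settings tried it ran from -1.31 to -0.80. The called genes ETS1, PDE7A, P2RY10 and CLEC2D are known from lymphocytes as well, but they were on none of the lists, and whether their differences move with the T cell markers was not tested.

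**Figure D5:**
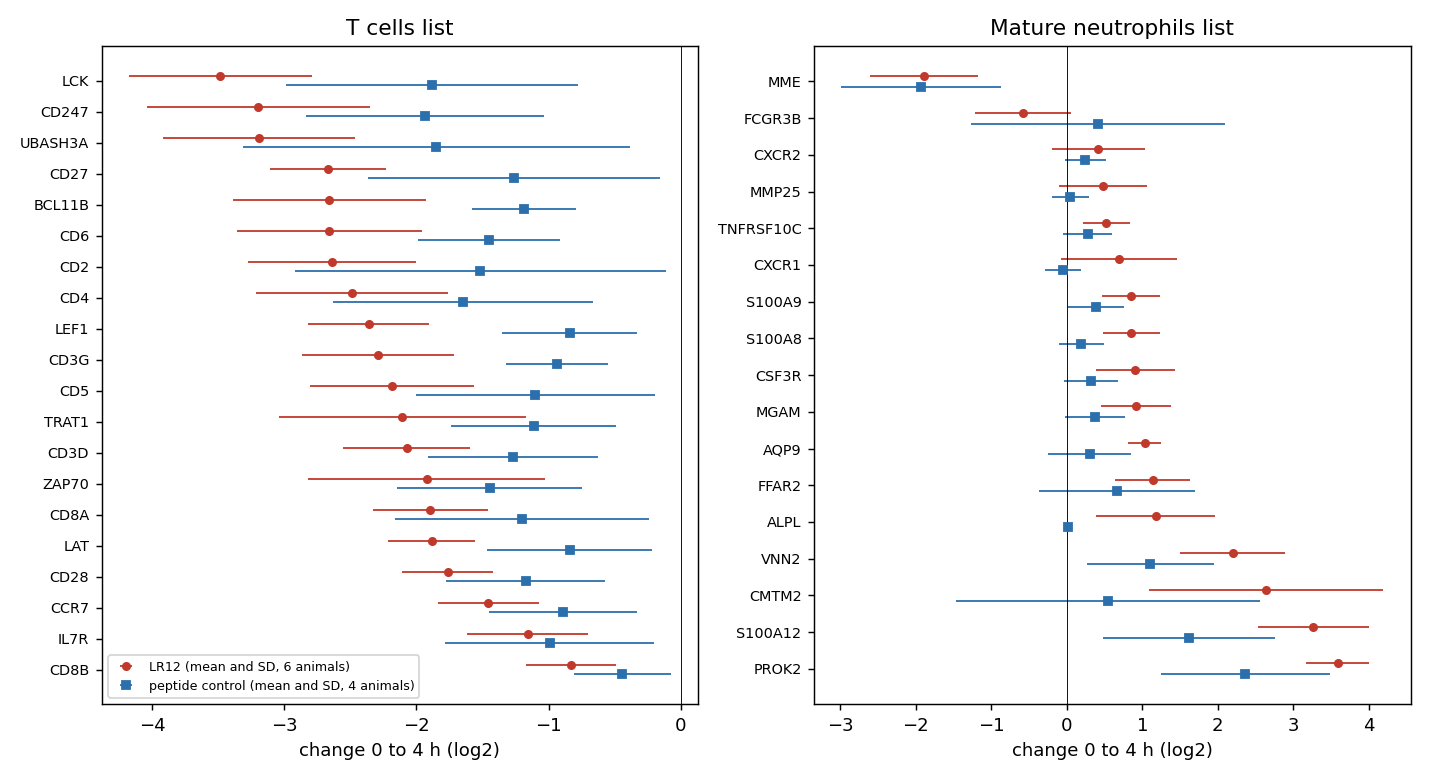
Mean log2 change from 0 to 4 h with SD for each measured gene of the T cell list (left, 20 genes) and the mature neutrophil list (right, 17 genes), LR12 (circles, 6 animals) above the peptide control (squares, 4 animals). Every T cell gene has its LR12 mean to the left of the peptide control mean, and 16 of 17 neutrophil genes have it to the right.

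Natural killer and cytotoxic cell genes had a median difference of -0.51 over 20 genes, with 9 lower in LR12 at an unadjusted p below 0.05 and 4 lower without overlap, against 8.5% and 1.97% of all genes. FASLG, the death ligand of cytotoxic cells, fell by 3.31 in LR12 and was at -0.85 in the peptide control, where it was not called (difference -2.46 ± 0.57, adjusted p = 0.0936). CTSW, a cathepsin of cytotoxic cells, fell by 3.11 and by 1.60 (difference -1.51 ± 0.39, adjusted p = 0.116). LR12 animals were higher in this list at 0 h by a median of 0.70, and at 4 h the median difference was -0.14. B cell genes had a median difference of -0.55 over 18 genes, with 10 down in LR12 and 1 in the peptide control, against 28.9% and 9.79% of all genes, and the median was -0.37 without Y31305 and -0.34 with the median over probe sets. EBF1, a factor of B cell identity, fell by 1.80 in LR12 and was at -0.61 in the peptide control (difference -1.19 ± 0.32, adjusted p = 0.132). Major histocompatibility complex class II genes had a median difference of -0.57 over 14 genes, which was -0.21 without Y31305. CD74, the invariant chain, fell by 2.03 in LR12 and by 1.24 in the peptide control (difference -0.79 ± 0.34, adjusted p = 0.341).

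Cell cycle genes had a median difference of -0.89 over 25 genes, 23 of them below 0. In LR12 19 fell and in the peptide control 1, against 28.9% and 9.79% of all genes. Of the 25 differences, 11 were lower at an unadjusted p below 0.05, against 8.5% of all genes. PCNA, the sliding clamp of DNA replication, changed by -1.80, -1.59 and -1.29 in LR12 animals and by 0.13, -0.40, -1.21 and -0.08 in peptide control animals, without overlap (difference -1.19 ± 0.28, adjusted p = 0.0941). MCM6, part of the replicative helicase, fell by 2.48 in LR12 and was at -0.99 in the peptide control (adjusted p of the difference 0.150), and TOP2A, the topoisomerase of dividing cells, differed by -1.70 ± 0.57 (adjusted p = 0.219). Without Y31305 the median of the list was -0.71. Platelet genes had a median difference of -0.73 over 14 genes, with 9 down in LR12 and 0 in the peptide control, against 28.9% and 9.79% of all genes. The platelet median was -0.56 without Y31305. PF4, a chemokine of platelet granules, fell by 1.16 in LR12 and was at -0.07 in the peptide control (difference -1.09 ± 0.34, adjusted p = 0.181).

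Neutrophil genes went the other way. Mature neutrophil genes had a median difference of 0.58 over 17 genes, 16 of them above 0, with 8 higher at an unadjusted p below 0.05 against 4.67% of all genes. Within LR12 13 rose and 1 fell, and within the peptide control 3 rose and 1 fell, where 12.6% and 5.08% of all genes rose. S100A12, a calcium-binding alarmin, changed by 2.38, 3.22 and 4.44 in LR12 animals and by 0.66, 2.51, 2.70 and 0.62 in peptide control animals (difference 1.64 ± 0.46, adjusted p = 0.150). At 0 h LR12 animals were lower in this list by a median of 0.32 (LR12 minus peptide control -0.32), and at 4 h they were higher by 0.42. The vehicle median of the list was 0.51, between 0.91 in LR12 and 0.32 in the peptide control.

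Genes of neutrophil granules had a median difference of 0.69 over 17 genes, with 13 above 0 and 4 below, the lowest at -1.39. The median was 0.43 without Y31305 and 1.07 without Y31306. OLFM4, a protein of specific granules made in the marrow, changed by 7.47, 7.69 and 8.24 in LR12 animals and by 2.66, 7.35, 6.05 and 6.56 in peptide control animals. The arms did not overlap, but Y31306 lay just below the lowest LR12 animal (difference 2.15 ± 0.63, adjusted p = 0.163). LTF and MMP8, a further pair of granule genes, differed by 2.19 ± 0.70 and 1.97 ± 0.50 (adjusted p 0.20 and 0.117). Monocyte genes had a median difference of 0.36 over 15 genes, 8 of them above 0, which was 0.21 without Y31305 and 0.10 with a stricter filter on low values. Patrolling monocyte genes had -0.34 over 10, but 0.17 without Y31305 and -0.83 without Y31306, so their direction rests on 1 animal. Dendritic cell genes had -0.33 over 15 genes, which was -0.01 without Y31305 and -0.61 without Y31307. Erythroid genes had -0.29 over 14, which was -0.19 without Y31308 and -0.51 without Y31309. Genes of eosinophils, basophils and mast cells had -0.19 over 13, which ran from -0.77 without Y31306 to -0.10 without Y31312 and was 0.01 with the median over probe sets.

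The median difference kept its sign in all 22 settings tried for T cells, B cells, natural killer cells, platelets, the cell cycle, class II genes, both neutrophil lists, monocytes, NF-kB, the inflammasome, anti-inflammatory mediators and endotoxin recognition. The same held for TREM-1 and its partners, cell survival, adhesion and migration, glycolysis, the proteasome, heat shock, dendritic cells and erythroid cells. Among these was the heat shock list at -0.09, near the -0.05 over all genes, so a kept sign alone sets no list apart. These settings share most of their arrays. Some of them, such as the fit with no replicate block, change only the spread and cannot move the median. Members of a cell type list come from the same cells and are not independent of each other.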

How the data were processed

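Per the labels, total RNA came from blood in PAXgene tubes and biotinylated cDNA was made with the NuGEN Ovation kit for blood. The deposited table holds linear array intensity for 54675 probe sets on 56 arrays, summarised by MAS5, as the submitters' processing notes record, whose version and settings are not given in the sources used here. The mean after trimming 2% of values was 150.03 to 150.04 on every array, so the deposited intensity values had been scaled to one level. The labels name no further step, and the number of arrays limits the precision.

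Values were put on the log2 scale. A probe set was kept if above its array's median on at least 4 of 56 arrays (38767 kept). A gene was read by its kept probe set of highest mean among those with 1 symbol (41097 probe sets had 1 symbol, 1801 several, 11777 none). Of the 16020 genes, 7881 had at least 2 kept probe sets and 13561 carry a symbol of the macaque RefSeq table. Probe sets can also bind related transcripts.

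The test was limma 3.58.1 (R 4.3.3) on the 20 arrays, with the animal as a fixed block (8 residual degrees of freedom), robust moderation and a prior variance that follows intensity. The contrast was the LR12 change minus the peptide control change, and the change within each arm came from the same fit. Tests were two-sided, with Benjamini-Hochberg adjustment over all genes and calls at 0.05. The fit was tested on simulated data. The pairing of arrays comes from the animal number in the labels. After removing group means, arrays of one animal correlated at a mean of 0.126 (0.0129 to 0.275), against -0.0139 between animals. No arrays were identical.

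Named genes were up to 15 called genes of largest difference per direction with no overlap between arms and a level above the array median in at least 1 group, filled to 10 by smallest p, then 18 genes of TREM-1 signalling and inflammation, then up to 4 members of smallest p from each of 32 lists. The members and lists were chosen with earlier results of these data known. A low level means under the 20th percentile of the arrays. Control sets were split at the largest gap (log2 8.45 to 9.06) in the mean of 12 poly-A control probe sets. Alternatives covered scaling, filters, an offset, the probe set rule, the block, the arrays fitted, the control set, the moderation and each animal left out.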

Additional observations from a re-analysis of the deposited data

Results flagged for a closer look

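Of 372 groups of animals examined (the named genes and list medians in each arm), 27 held an animal far from the rest of its arm in the change to 4 h, where chance gives about 5%. The groups share animals and some share genes, so these flags are not independent of each other. Y31305 gave 9 of them and Y31309 gave 7. In Y31305 the changes were 0.31 for CAPN3, 0.45 for CDKN2B, -2.66 for TNF, -0.12 for LTA, -0.13 for HLA-DPB1, -0.69 for PSMA4, -2.79 for CHI3L1, 0.10 for MS4A7 and -0.13 for the median of natural killer and cytotoxic cell genes. The other peptide control animals spanned 1.86 to 2.13 for CDKN2B, 0.08 to 0.58 for TNF and -2.78 to -2.48 for MS4A7.

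In Y31309 of the LR12 arm the changes were -1.23 for the orphan immunoglobulin kappa segment, -0.10 for TREML1, 1.81 for GADD45B, -1.82 for FOS, 1.91 for NFIL3, 0.036 for TUBB1 and 0.49 for the median of erythroid genes. Y31312 stood apart in CLEC2D (-3.70), the median of class II genes (-2.06) and the median of glucocorticoid-responsive genes (0.82), and Y31311 in PSMA5 (-2.20) and BATF3 (2.18). Among other peptide control animals, Y31308 stood apart in CLEC7A (0.16) and TREM1 (-1.82), Y31307 in CXCL8 (2.79), JUNB (1.38) and PRG2 (2.50), and Y31306 in the median of eosinophil, basophil and mast cell genes (-2.41).

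The 7 genes whose change differed between LR12 and the peptide control by the test of the difference were FARS2 (1.32), ETS1 (-1.70), LBH (-1.70), PDE7A (-2.11), CLEC2D (-2.0), ABHD10 (-1.76) and P2RY10 (-1.73).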

How the results depend on the processing

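Beside 1 gene called higher and 6 lower in LR12 as reported, the counts were 0 and 6 with arrays centred on their median, 0 and 3 after quantile normalization, 1 and 3 with no filter on low values, 4 and 27 with a stricter filter (12317 genes tested), 4 and 25 with 16 added before log2, 1 and 0 with the median over a gene's probe sets, 0 and 2 with all 14 animals sharing the spread, 1 and 0 with all 56 arrays and the animal as a random block (consensus correlation 0.221), 5 and 48 with the control set as a covariate, and 0 and 0 without trend and robust moderation (1805 genes at an unadjusted p below 0.05). With no replicate block, limma called 0 higher and 0 lower (1444 genes at an unadjusted p below 0.05, smallest adjusted p 0.197). No gene was thus called without the pairing by animal, but keeping the pairing did not secure a call in every setting. Settings chosen after seeing the data gave 1 and 17 with only animals that kept one control set (without Y31307 and Y31311), and 25 and 92 at an adjusted p below 0.1. Leaving out 1 animal gave 0 to 6 higher and 0 to 79 lower: 0 and 0 without Y31305, Y31308 or Y31313, 4 and 18 without Y31306, 6 and 79 without Y31307, 1 and 13 without Y31311, and 0 and 2 without Y31312. The cause was not tested.

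The count of genes changed in LR12 was 6649 and ran from 5795 to 6868 over all alternatives. That in the peptide control was 2383, and it was 1479 with no replicate block, 1429 with the control set as a covariate, 841 without trend and robust moderation, 408 in animals that kept one control set, and 400 (without Y31306) to 3727 (without Y31305) with 1 animal left out. Among the named genes, the 1 reversal was CLEC2D, at 0.0817 with the median over its probe sets. Apart from that, the 7 called genes kept their sign in all 22 settings and were called in 7 (ABHD10, P2RY10) to 15 (PDE7A) of them. Since their changes do not overlap between the arms, leaving out animals could not turn a sign. Settings that change only the spread leave the difference as it is. The adjusted p of ETS1 ran from 0.00424 to 0.254. Over 153 named genes and 3360 values, 79 lost and 53 gained a call. Changes that begin or end under the 20th percentile of the arrays have no defined size.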

Other observations

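Of 18 genes of cell death and survival none was called, and at an unadjusted p below 0.05 1 was higher and 2 were lower in LR12, against 4.67% and 8.5% of all genes. BCL2A1, a survival factor of activated myeloid cells induced by NF-kB, changed by 1.66, 2.82 and 3.26 in LR12 animals (lowest, median and highest) and by -1.23, 1.95, 1.26 and 0.74 in peptide control animals (difference 1.95 ± 0.48, SE, adjusted p = 0.106). Its level in LR12 minus peptide control was -1.25 at 0 h and 0.71 at 4 h. BCL2, a survival factor of lymphocytes, fell by 2.23 in LR12 and by 1.44 in the peptide control (difference -0.79 ± 0.31, adjusted p = 0.299). Genes of heat shock and the unfolded protein response had a median difference of -0.09 over 22 genes, beside -0.05 over all genes, with 7 above 0. At an unadjusted p below 0.05, 6 were lower in LR12 and 1 was higher, against 8.5% and 4.67% of all genes. The chaperone HSP90AB1 was at -0.66 ± 0.18 and the mitochondrial chaperone HSPD1 at -1.05 ± 0.33 (adjusted p 0.150 and 0.187). Genes of glycolysis and the hypoxia response had a median difference of 0.09 over 26 genes. Of these, 8 were higher in LR12 and 2 lower at that threshold, against 4.67% and 8.5% of all genes. The higher ones included the phagocyte hexokinase HK3 (0.94 ± 0.25, adjusted p = 0.123).

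Genes responsive to glucocorticoids had a median difference of -0.02 over 19 genes, which was 0.37 without Y31305 or without Y31307 and -0.11 without Y31308. Of these genes, 5 were higher in LR12 at an unadjusted p below 0.05, against 4.67% of all genes. FKBP5, a co-chaperone of the steroid receptor, rose by 1.30 ± 0.26 in LR12 (SD, n = 6) and 0.55 ± 0.15 in the peptide control (SD, n = 4) without overlap (adjusted p of the difference 0.112). The transferrin receptor gene TFRC rose by 1.75 in LR12 and was at 0.62 in the peptide control (difference 1.13 ± 0.34, adjusted p = 0.171). CMA1, a chymase of mast cells, fell by 3.15 in LR12 and by 1.91 in the peptide control without overlap (difference -1.24 ± 0.32, adjusted p = 0.123). THBD, the anticoagulant receptor thrombomodulin, rose by 1.05 in LR12 and was at 0.35 in the peptide control, also without overlap (difference 0.70 ± 0.16, adjusted p = 0.0941).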
